A study of Homo sapiens with 6 samples.

Results

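The 10 genes described here encode cytokines and chemokines that B cells can make: LTA, LTB, TNF and CD70 of the tumour necrosis factor family, the chemokines CCL3, CCL4 and CCL22, and the cytokines IL10, IL32 and EBI3. They were taken by gene symbol from 23834 genes with a usable estimate. Values are FPKM, that is fragments scaled to transcript length and library size, summed over the isoforms of a gene. PolyA RNA of 6 cultures was measured, 1 library for each group and none of them replicated: DOHH2, a follicular lymphoma line, as idelalisib-resistant, ibrutinib-resistant and WT cells, and DAUDI, a Burkitt lymphoma line, as idelalisib-resistant, ibrutinib-resistant and WT cells. Idelalisib blocks PI3K delta, and ibrutinib blocks the tyrosine kinase BTK, enzymes that pass on signals of the B cell receptor. The labels say that the lines came from ATCC and give no dose or time of drug, nor whether a resistant culture is 1 clone or was under drug at harvest. The question asked of these genes is how far their transcripts differ between resistant and WT cells, between the lines, and between the drugs.

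Signals from the B cell receptor and from TNF family receptors act through NF-kB and other factors on cytokine genes, so activated B cells make more of several of these transcripts than resting ones. LTA forms a secreted homotrimer that binds the TNF receptors, and together with LTB it forms a membrane-bound complex that binds the lymphotoxin beta receptor and is needed for the building of lymphoid follicles. CD70 is the ligand of CD27. CCL3 and CCL4 draw in monocytes and T cells, and CCL22 draws in cells with CCR4, such as regulatory T cells. IL10 limits inflammation, and EBI3 is the subunit that IL-27 and IL-35 share.

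The libraries labelled WT did not group with their lines. Across 12186 genes the DOHH2 and DAUDI libraries labelled WT correlated with each other at a Pearson r of 0.991, with 60 genes that differed by at least 1 on the scale log2(FPKM + 1). Each had an r of only 0.722 to 0.737 with the resistant libraries of its own line, whereas both resistant libraries of a line had an r of 0.992 in DOHH2 and 0.980 in DAUDI. These correlations are across genes, which are not independent replicates. Each difference from a WT-labelled library below therefore holds for the library so labelled. All 7 B cell markers stood at 1 FPKM or more in every library. The summed level of 5 germinal centre B cell markers was 436, 413, 399 and 491 FPKM in the idelalisib-resistant and ibrutinib-resistant DOHH2 and DAUDI libraries, against 11 FPKM in the WT-labelled DOHH2 library and 9.26 FPKM in the WT-labelled DAUDI library. Each of these 5 passed as higher in resistant cells, beside 14.2% of all genes tested. Genes were tested if they reached 1 FPKM in some library. MME, GCSAM and BACH2 did so only in resistant libraries, so their direction was set beforehand. This marker list moves with every difference from WT given below, and its part in them was not tested. Absolute depth is unknown without counts. Relative depth was 0.936 to 1.42 times that of the WT-labelled DAUDI library.

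The promoters of 4 genes are shown because their transcripts carried the main contrasts: LTB differed most between the lines, and IL32, CCL22 and IL10 were far lower in resistant than in WT-labelled libraries. Each sequence is the 250 bases before the RefSeq start, written 5′ to 3′ on the gene's strand, with motif matches in capitals. They are from RefSeq on GRCh38.p14, not the hg19 build of the expression files. The LTB promoter lies at chr6:31582426-31582675 on the minus strand, that of IL32 at chr16:3065153-3065402 on the plus strand, that of CCL22 at chr16:57358533-57358782 on the plus strand and that of IL10 at chr1:206772495-206772744 on the minus strand.
LTB: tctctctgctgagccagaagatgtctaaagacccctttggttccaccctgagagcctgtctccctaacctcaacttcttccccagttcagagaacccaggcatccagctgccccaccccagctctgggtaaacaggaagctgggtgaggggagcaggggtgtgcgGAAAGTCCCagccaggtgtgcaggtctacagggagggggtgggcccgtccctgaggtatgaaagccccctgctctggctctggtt
IL32: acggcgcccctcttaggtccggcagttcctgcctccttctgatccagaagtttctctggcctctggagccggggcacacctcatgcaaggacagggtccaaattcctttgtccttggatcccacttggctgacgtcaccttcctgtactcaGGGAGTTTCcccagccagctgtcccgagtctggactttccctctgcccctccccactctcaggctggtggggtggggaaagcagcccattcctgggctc
CCL22: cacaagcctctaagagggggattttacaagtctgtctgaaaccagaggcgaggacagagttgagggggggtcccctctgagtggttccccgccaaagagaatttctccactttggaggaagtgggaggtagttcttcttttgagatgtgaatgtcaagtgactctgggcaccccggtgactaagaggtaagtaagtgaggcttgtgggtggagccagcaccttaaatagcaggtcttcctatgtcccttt
IL10: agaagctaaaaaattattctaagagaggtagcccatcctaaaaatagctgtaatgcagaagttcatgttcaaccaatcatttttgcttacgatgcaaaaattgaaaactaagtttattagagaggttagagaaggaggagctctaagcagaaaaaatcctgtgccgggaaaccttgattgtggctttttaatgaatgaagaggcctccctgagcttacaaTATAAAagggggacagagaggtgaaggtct
The motif GGGANNTTC, the larger part of the NF-kB motif, was searched on both strands. It is in 2 of the 8 promoters that could be matched, those of LTB and IL32, and in 3.57% of all 27305 promoters. The LTB match lies at position -85 from the start on the other strand, and the IL32 match at position -99. The TATA motif TATAAA, which does not overlap it in any promoter shown, is in the promoters of TNF, CCL3 and IL10, 3 of the 8, and in 11.2% of all promoters, and the one in IL10 begins at position -30. None of these motifs is in the CCL22 window. The matched promoters are those of LTA, LTB, TNF, CCL3, CCL22, IL10, IL32 and EBI3. CCL4 and CD70 are named only.

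Most of these transcripts were lower in resistant cells than in the WT-labelled libraries, LTB in DAUDI and CD70 apart, and CCL3 and CCL4 were low in all 6 libraries. Against the WT-labelled library of the same line, 9 of the 10 genes were lower by at least 1 on the scale log2(FPKM + 1) in idelalisib-resistant DOHH2 cells and 9 in ibrutinib-resistant DOHH2 cells, and 6 were lower and 1, LTB, was higher in each resistant DAUDI library. The background over all 12337 genes tested was 15.7% lower in each DOHH2 comparison, and 15.8% lower in idelalisib-resistant and 14.6% lower in ibrutinib-resistant DAUDI cells. The share of all genes higher by that much was 15.3% in idelalisib-resistant and 20.2% in ibrutinib-resistant DAUDI cells. The median difference of the 10 genes was -3.06 and -3.04 in idelalisib-resistant and ibrutinib-resistant DOHH2 cells and -1.54 and -1.60 in idelalisib-resistant and ibrutinib-resistant DAUDI cells, beside medians of all genes of 0.08, 0.03, 0.05 and 0.18 in the same order. All 10 passed the filter of 1 FPKM in at least 1 library, but CCL3, CCL4, CCL22 and IL10 passed it through WT-labelled libraries alone. So CCL22 and IL10 had to be lower in resistant cells of both lines. CCL3 and CCL4 reached 1 FPKM only in the WT-labelled DOHH2 library, so these had to be lower in resistant DOHH2 cells. Differences within a line compare 2 libraries, with no replicate check. In these cultures fewer cells that make a transcript and less of it per cell cannot be told apart.

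**Figure D1:**
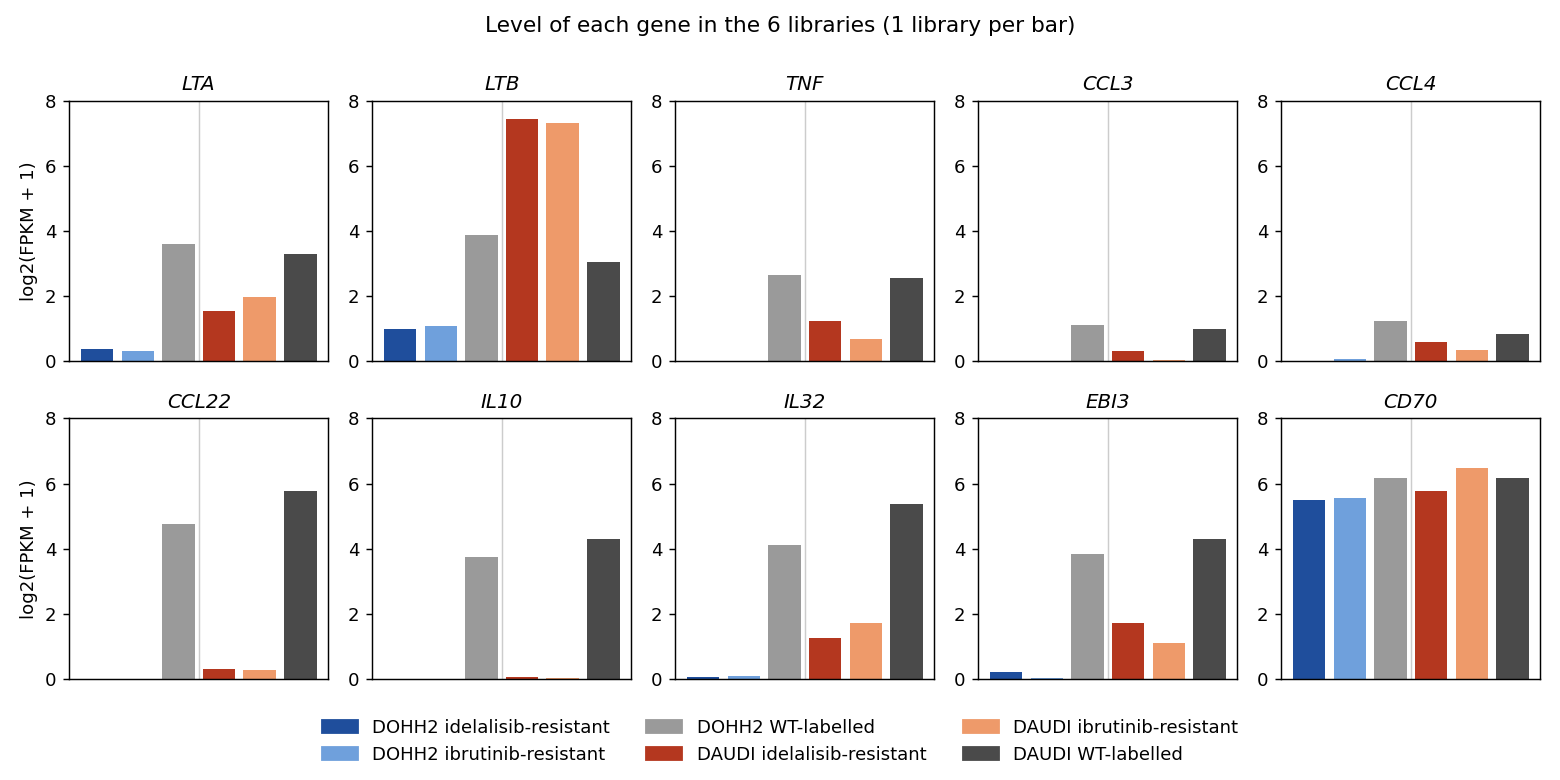
Level of each of the 10 genes in log2(FPKM + 1), 1 panel per gene and 1 bar per library, with DOHH2 left and DAUDI right of the grey line and the WT-labelled library last in each line. CCL22 and IL10 stand high in both WT-labelled libraries only, LTB is highest in both resistant DAUDI libraries, and CD70 is high in all 6.

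For both lines together, resistant and WT-labelled libraries were compared with limma on log2(FPKM + 1), with the line as a block and adjustment over all 12337 genes. LTA, TNF, CCL3, CCL22, IL10, IL32 and EBI3 fell, 7 of the 10, beside 13.1% of all genes tested. LTB, CCL4 and CD70 did not pass. CCL3, CCL22 and IL10 entered the test through WT-labelled libraries alone. The filter thus set the direction of CCL22 and IL10 in both lines and that of CCL3 in DOHH2. Of the 6 genes at 1 FPKM or more in a resistant library too, LTA, TNF, IL32 and EBI3 fell, 4 of 6. Taken one drug at a time, 5 of the 10 passed for idelalisib, beside 10.4% of all genes falling, and 6 for ibrutinib, beside 9.67%. No call held in either of these comparisons when any resistant library was left out. These comparisons share the WT-labelled libraries, so they are not independent. The p-values rest on 2 residual degrees of freedom and measure only the spread between these libraries. Leaving out 1 resistant library left 0 to 3 of the 7 calls, with 0 without idelalisib-resistant DOHH2, 3 without ibrutinib-resistant DOHH2 (CCL22, IL10 and IL32) and 2 without either resistant DAUDI library (CCL22 and IL32). Without a WT-labelled library the contrast is that of the other line alone, against 1 library. LTB then stood at -2.85 without the WT-labelled DAUDI library and at 4.32 without the WT-labelled DOHH2 library. So passing in such a fit adds no support for both lines together.

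**Figure D2:**
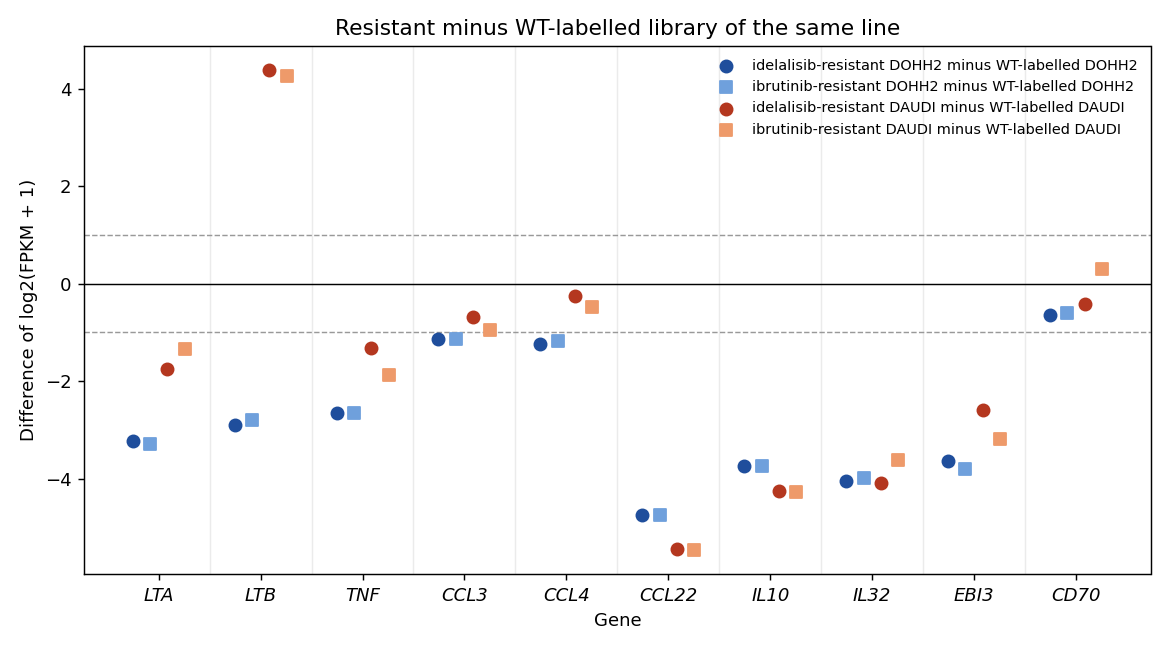
Difference of log2(FPKM + 1) between each resistant library and the WT-labelled library of its line, for the 10 genes on the x axis. Circles are idelalisib-resistant, squares are ibrutinib-resistant, and dashed lines mark a difference of 1 in either direction. LTB is at 4.38 and 4.25 in DAUDI and at -2.90 and -2.80 in DOHH2.

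LTB, the membrane anchor of the lymphotoxin complex, differed from the WT-labelled library in opposite directions in the lines. On the log2 scale resistant DOHH2 minus resistant DAUDI was -6.34, and WT-labelled DOHH2 minus WT-labelled DAUDI was 0.82. The WT-labelled libraries did not group with their lines, so a change within a line cannot be told apart from a difference between lines. LTB stood at 0.982 and 1.12 FPKM in idelalisib-resistant and ibrutinib-resistant DOHH2 cells, against 13.8 FPKM in the WT-labelled one. It stood at 173 and 158 FPKM in idelalisib-resistant and ibrutinib-resistant DAUDI cells, against 7.35 FPKM in the WT-labelled one. LTB was thus the most abundant of the 10 transcripts in resistant DAUDI cells, above 98.2% and 97.7% of all genes tested, and was 23.6-fold and 21.5-fold higher than in the WT-labelled library. In resistant DOHH2 cells it was above only 16.6% and 17.4% of genes. A fit with 1 mean per line and state, chosen after seeing the data, takes both resistant libraries of a line as replicates and assumes that a lone WT-labelled library varies like them. By it 9 of the 10 genes fell in resistant DOHH2 cells, beside 19% of all genes, and 7 fell and 1 rose in resistant DAUDI cells, beside 19.4% and 22.3%. Among these calls the filter set the direction of CCL22 and IL10 in both lines and of CCL3 and CCL4 in DOHH2. The direction of CCL3 in DAUDI is uncertain, as given below. Without either resistant DOHH2 library 5 of the 10 passed in DOHH2 and 4 in DAUDI. LTB fell by 2.85 on the log2 scale in resistant DOHH2 cells (SE 0.12, limma adjusted p = 0.00141) and rose in resistant DAUDI cells by 4.32 (SE 0.12, limma adjusted p = 0.000633). The state difference in DOHH2 minus that in DAUDI was -7.17 (SE 0.18, limma adjusted p = 0.00517), and LTB alone of the 10 passed this test, beside 9.6% of all genes. This difference no longer passed without either resistant DOHH2 library. Its size was then -7.12 without idelalisib-resistant and -7.22 without ibrutinib-resistant DOHH2. Such a fit leaves 1 resistant DOHH2 library, and its residual spread comes from the resistant DAUDI pair alone. In the fit over both lines the LTB differences nearly cancelled, at 0.74 with an SE of 1.80 (limma adjusted p = 0.774). Without the WT-labelled DAUDI library the value was -2.85, which is the difference within DOHH2.

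LTB has 2 RefSeq isoforms in the files, NM_002341 of 893 nucleotides and NM_009588 of 847 nucleotides, and both were plentiful in resistant DAUDI cells. NM_009588 made up 63.2% and 63.1% of LTB in idelalisib-resistant and ibrutinib-resistant DAUDI cells, against 39.1% in the WT-labelled one. Its deposited coverage, a depth value not scaled to library size, was 610 and 762 there, against 15.5. In resistant DOHH2 cells its share was 75.9% and 0.105%, at a gene level near 1 FPKM, against 55.5% in the WT-labelled library. The resistant DAUDI libraries thus had nearly equal isoform shares, while those of resistant DOHH2 cells rest on a coverage of at most 5.30 for either isoform. No interval is given, since the files hold no counts.

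**Figure D3:**
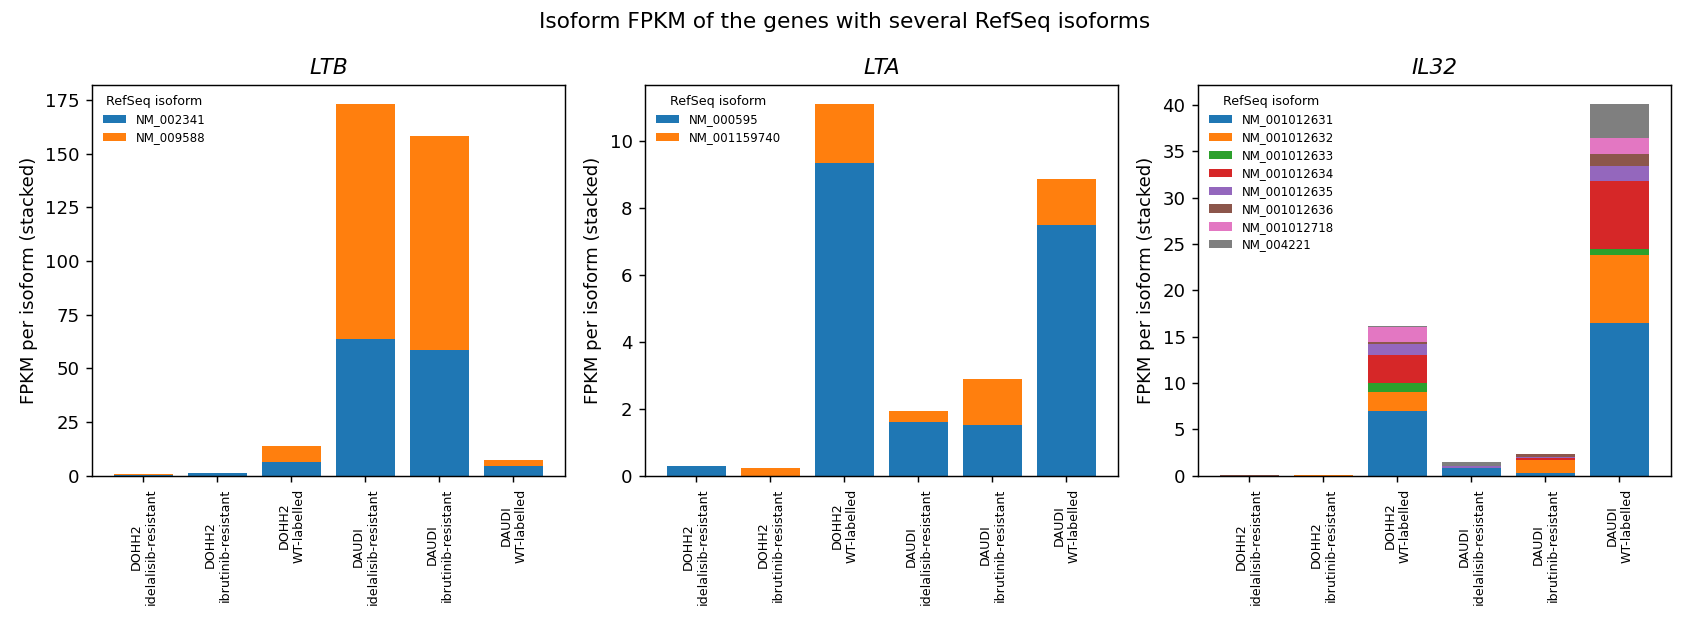
FPKM per RefSeq isoform, stacked, for the genes with several isoforms in the files (LTB, LTA and IL32), with 1 bar per library and a separate linear y axis in each panel. The LTB bars of both resistant DAUDI libraries reach 173 and 158 FPKM with the same order of isoforms, while IL32 is split over 8 isoforms in the WT-labelled libraries.

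LTA, the soluble lymphotoxin subunit, and TNF, the inflammatory cytokine, lie beside LTB on chromosome 6 (hg19), with LTA at chr6:31539876-31542100, TNF at chr6:31543344-31546112 and LTB at chr6:31548336-31550202. Between LTA and TNF lie 1243 bases, and between TNF and LTB 2223 bases. LTA stood at 0.292 and 0.240 FPKM in idelalisib-resistant and ibrutinib-resistant DOHH2 cells, against 11.1 FPKM in the WT-labelled one. It stood at 1.93 and 2.90 FPKM in idelalisib-resistant and ibrutinib-resistant DAUDI cells, against 8.85 FPKM in the WT-labelled one. LTA fell by 2.40 on the log2 scale in resistant cells (SE 0.47, limma adjusted p = 0.0334). By the fit with 1 mean per line and state the difference was -3.26 in DOHH2 and -1.54 in DAUDI, and the difference between these, -1.72 with a 95% interval of -2.64 to -0.80, did not pass (limma adjusted p = 0.0666). With another scaling of the libraries it passed, at -1.68 by median of ratios (limma adjusted p = 0.0386) and -1.72 by upper quartile (limma adjusted p = 0.0367). The isoform NM_000595 took most of LTA in both WT-labelled libraries.

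TNF was listed at 0 in both resistant DOHH2 libraries, against 5.31 FPKM in the WT-labelled one. It stood at 1.36 and 0.620 FPKM in idelalisib-resistant and ibrutinib-resistant DAUDI cells, against 4.90 FPKM in the WT-labelled one. TNF fell by 2.13 in resistant cells (SE 0.33, limma adjusted p = 0.0211). With a pseudocount of 0.1 neither LTA nor TNF passed (limma adjusted p = 0.055 and 0.052), and LTA did not pass without a filter on low values (limma adjusted p = 0.0664). So of 3 neighbouring genes LTA and TNF were lower in all resistant libraries, while LTB was higher in those of DAUDI.

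CD70, at chr19:6585850-6591163, was the steadiest of the 10 and the most abundant transcript of the set in resistant DOHH2 cells. It stood at 44.6 and 45.7 FPKM in idelalisib-resistant and ibrutinib-resistant DOHH2 cells, against 70.4 FPKM in the WT-labelled one. In DAUDI it stood at 53.4 and 87.6 FPKM in the idelalisib-resistant and ibrutinib-resistant libraries, against 71.3 FPKM in the WT-labelled one. The groups overlap, and the difference of -0.34 (95% interval -1.0 to 0.31, limma adjusted p = 0.323) did not pass. The ibrutinib-resistant DAUDI library, which has the highest CD70 value, also has a median difference over all genes of 0.18 from its WT-labelled library, and of -0.02 after median of ratios scaling.

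CCL22, the ligand of CCR4, had the largest fall of the 10. It was listed at 0 in both resistant DOHH2 libraries, against 25.9 FPKM in the WT-labelled one, and stood at 0.247 and 0.231 FPKM in idelalisib-resistant and ibrutinib-resistant DAUDI cells, against 53.4 FPKM in the WT-labelled one. That is 217-fold and 232-fold lower in resistant DAUDI cells, from a gene at chr16:57392695-57400102 with 1 isoform in the files. CCL22 fell by 5.11 on the log2 scale in resistant cells (SE 0.24, limma adjusted p = 0.0028). Deposited coverage of CCL22 in resistant DAUDI cells was 1.31 and 1.68, against 284 in the WT-labelled library.

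CCL3, at chr17:34415603-34417506, and CCL4, at chr17:34431220-34433014, were low everywhere. CCL3 was listed at 0 in both resistant DOHH2 libraries, against 1.19 FPKM in the WT-labelled one, and stood at 0.239 and 0.0350 FPKM in idelalisib-resistant and ibrutinib-resistant DAUDI cells, against 0.995 FPKM in the WT-labelled one. CCL4 stood at 0 and 0.0460 FPKM in idelalisib-resistant and ibrutinib-resistant DOHH2 cells, against 1.36 FPKM in the WT-labelled one. In DAUDI, CCL4 stood at 0.505 and 0.287 FPKM in the idelalisib-resistant and ibrutinib-resistant libraries, against 0.798 FPKM in the WT-labelled one. CCL3 fell by 0.97 (SE 0.18, limma adjusted p = 0.0307), and CCL4, with a difference of -0.79 (SE 0.27), did not pass (limma adjusted p = 0.105). Both chemokines have near-identical copies that can share reads with them, and the copies ran the other way in DAUDI. CCL4L1 stood at 7.43 and 3.95 FPKM in idelalisib-resistant and ibrutinib-resistant DAUDI cells, against 0.359 FPKM in the WT-labelled one, and CCL3L3 at 3.12 and 0.651 FPKM, against 0.240 FPKM. The deposited files mark the CCL3L3 estimate as resting on too little data in all 6 libraries. In resistant DOHH2 cells no copy exceeded 0.0235 FPKM. The summed level of the copies was 10.6 and 5.32 FPKM in idelalisib-resistant and ibrutinib-resistant DAUDI cells, above CCL3 and CCL4 themselves, so the direction of CCL3 and CCL4 in DAUDI is uncertain.

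IL10, at chr1:206940948-206945839, was listed at 0 in both resistant DOHH2 libraries, against 12.4 FPKM in the WT-labelled one. It stood at 0.0381 and 0.0279 FPKM in idelalisib-resistant and ibrutinib-resistant DAUDI cells, against 18.8 FPKM in the WT-labelled one. IL10 fell by 4.0 (SE 0.21, limma adjusted p = 0.00302), and its deposited coverage of 0.217 in each resistant DAUDI library leaves little signal there.

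IL32, a cytokine without a mouse counterpart, lies at chr16:3115313-3119668. It stood at 0.0451 and 0.0820 FPKM in idelalisib-resistant and ibrutinib-resistant DOHH2 cells, against 16.2 FPKM in the WT-labelled one. It stood at 1.43 and 2.34 FPKM in idelalisib-resistant and ibrutinib-resistant DAUDI cells, against 40.2 FPKM in the WT-labelled one. IL32 fell by 3.93 (SE 0.19, limma adjusted p = 0.00288). Of its 8 isoforms NM_001012631 led in both WT-labelled libraries, with 43.5% of IL32 in DOHH2 and 41.0% in DAUDI.

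EBI3, at chr19:4229540-4237524, stood at 0.160 and 0.0327 FPKM in idelalisib-resistant and ibrutinib-resistant DOHH2 cells, against 13.5 FPKM in the WT-labelled one. It stood at 2.27 and 1.17 FPKM in idelalisib-resistant and ibrutinib-resistant DAUDI cells, against 18.6 FPKM in the WT-labelled one. EBI3 fell by 3.30 (SE 0.28, limma adjusted p = 0.007). Of the subunits that pair with EBI3, named after their values were seen, IL12A was listed at 0 in all 4 resistant libraries, against 1.79 and 2.24 FPKM in the WT-labelled DOHH2 and DAUDI libraries, and IL27 reached at most 0.0330 FPKM.

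Between the lines, 5 of the 10 transcripts were lower in resistant DOHH2 than in resistant DAUDI cells, and none was higher by the test. In the 4 resistant libraries, with the drug in the fit, LTB, LTA, IL32, EBI3 and CCL22 were lower in DOHH2, beside 8.48% of all genes tested. LTB differed by -6.34 (SE 0.15, limma adjusted p = 0.0119), LTA by -1.42 (SE 0.16, limma adjusted p = 0.0315), IL32 by -1.42 (SE 0.14, limma adjusted p = 0.0249) and EBI3 by -1.28 (SE 0.14, limma adjusted p = 0.03). CCL22 differed by -0.31 (SE 0.04, limma adjusted p = 0.0328), with DOHH2 listed at 0 and idelalisib-resistant and ibrutinib-resistant DAUDI at only 0.247 and 0.231 FPKM. It passed the filter through WT-labelled libraries, which are not in this fit. With a pseudocount of 5 CCL22 and EBI3 no longer passed. TNF, at -0.97, CD70, at -0.59, CCL4, CCL3 and IL10 did not pass. This fit has 1 residual degree of freedom, and without a trend in the prior variance LTB alone of the 10 passed. With the drug dropped from the fit of all 4 libraries 7 of the 10 passed. Leaving out a library needs the drug dropped too and leaves 1 library in its line. The residual spread then comes from the other line alone. Without either resistant DOHH2 library the calls of LTA, IL32, EBI3 and CCL22 were lost. Without a resistant DAUDI library the spread came from the DOHH2 pair, where TNF, CCL3, CCL22 and IL10 were listed at 0 in both. IL10 then differed by only -0.054 without ibrutinib-resistant and -0.040 without idelalisib-resistant DAUDI, so passing in such a fit adds no support. With no filter on low values none of the 10 passed, and no gene did. The sum of the 10 genes was 46.1 and 47.3 FPKM in idelalisib-resistant and ibrutinib-resistant DOHH2 cells, nearly all of it CD70. It was 235 and 254 FPKM in idelalisib-resistant and ibrutinib-resistant DAUDI cells, mostly LTB and CD70. The number of genes at 1 FPKM or more was 1 and 2 in resistant DOHH2 cells and 6 and 5 in resistant DAUDI cells, against 10 and 8 in the WT-labelled DOHH2 and DAUDI libraries.

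The WT-labelled libraries themselves differed by less. CCL22 was lower in the WT-labelled DOHH2 library than in the WT-labelled DAUDI library by 1.02 and IL32 by 1.26 on the log2 scale, and the other 8 differed by less than 1. Over all genes 1.09% differed by 1 or more between these libraries. LTB, which separated the resistant lines most, stood at 13.8 FPKM in the WT-labelled DOHH2 library and 7.35 FPKM in the WT-labelled DAUDI library, the opposite order. For CCL22 the difference was -0.97 after upper quartile scaling, so its place past 1 depends on that choice.

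No difference between the drugs passed for these genes. None of the 10 differed by 1 or more between idelalisib-resistant and ibrutinib-resistant cells of DOHH2, where 1.08% of all genes did, or of DAUDI, where 3.5% did. By limma with the line in the fit none of the 10 passed, and none of 12337 genes did (0% called). At an unadjusted p under 0.05 there were 0 of the 10 and 212 genes in all, or 1.72%. The 95% interval of idelalisib-resistant minus ibrutinib-resistant was -0.47 to 0.50 for LTB, -0.69 to 0.34 for LTA, -1.09 to 0.35 for CD70, -0.27 to 0.81 for TNF and -0.07 to 0.84 for EBI3. These intervals leave room for differences of up to about 1 on the log2 scale. EBI3 was higher in the idelalisib-resistant than in the ibrutinib-resistant library in both lines, at 0.160 against 0.0327 FPKM in DOHH2 and 2.27 against 1.17 FPKM in DAUDI.

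The receptors of these ligands also differed in level. Of 15 receptor and partner genes, 9 passed the filter, and by limma 2 rose and 3 fell in resistant cells, beside 14.2% and 13.1% of all genes. Of these calls TNFRSF1A reached 1 FPKM only in resistant libraries, and TNFRSF1B and IL12A only in WT-labelled ones. The filter thus set the directions of TNFRSF1A, TNFRSF1B and IL12A. CD27, the receptor of CD70, stood at 66.3 and 65.2 FPKM in idelalisib-resistant and ibrutinib-resistant DOHH2 cells, against 1.5 FPKM in the WT-labelled library. CD27 stood at 121 and 118 FPKM in idelalisib-resistant and ibrutinib-resistant DAUDI cells, against 1.10 FPKM in the WT-labelled library, and rose by 5.29 (SE 0.30, limma adjusted p = 0.00357). So the ligand CD70 was abundant in all 6 libraries, while its receptor was abundant in the 4 resistant ones. The TNF receptors moved in opposite directions. TNFRSF1B, the receptor found mainly on lymphocytes, stood at 0.00820 to 0.137 FPKM in the 4 resistant libraries, against 49.2 and 47.8 FPKM in the WT-labelled DOHH2 and DAUDI libraries (difference -5.51, SE 0.17, limma adjusted p = 0.00242). TNFRSF1A, the widely expressed receptor with a death domain, stood at 14.4, 11.1, 9.11 and 12.4 FPKM in the resistant libraries, against 0 in both WT-labelled ones (limma adjusted p = 0.00435).

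TNFRSF14, which binds LTA weakly as well as its main ligands, followed the line as LTB did. It stood at 0.0968 and 0.300 FPKM in idelalisib-resistant and ibrutinib-resistant DOHH2 cells, against 9.75 FPKM in the WT-labelled library, and at 11.1 FPKM in each resistant DAUDI library, against 6.86 FPKM in the WT-labelled one. Resistant DOHH2 cells held less TNFRSF14 than resistant DAUDI cells by 3.34 on the log2 scale (SE 0.17, limma adjusted p = 0.0119). LTBR, the receptor of the lymphotoxin complex, named after its values were seen, reached at most 0.105 FPKM in any library.

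Among 42 other cytokine and chemokine genes, 41 were in the files and 17 passed the filter. By limma 1 of these 17 rose and 5 fell in resistant cells, beside 14.2% and 13.1% of all genes. The 5 that fell reached 1 FPKM only in WT-labelled libraries, and the 1 that rose only in resistant ones. The filter thus set all of these directions. TNFSF8, the CD30 ligand, stood at 8.16 and 7.71 FPKM in idelalisib-resistant and ibrutinib-resistant DOHH2 cells, against 0.158 FPKM in the WT-labelled library. In DAUDI it stood at 40.1 and 43.1 FPKM in idelalisib-resistant and ibrutinib-resistant cells, against 0.0929 FPKM in the WT-labelled library, and it rose by 4.12 (SE 0.60, limma adjusted p = 0.0184). CXCL13, the B cell follicle chemokine, was listed at 0 in all 4 resistant libraries, against 20.8 and 23.3 FPKM in the WT-labelled DOHH2 and DAUDI libraries (limma adjusted p = 0.00242). IL23A stood at 19.1 and 17.7 FPKM in resistant DOHH2 cells, against 0.497 FPKM in the WT-labelled library, and at 2.05 and 2.30 FPKM in resistant DAUDI cells, against 0.241 FPKM. It did not pass over both lines (limma adjusted p = 0.0516) and was higher in resistant DOHH2 than resistant DAUDI cells by 2.61 (SE 0.18, limma adjusted p = 0.0158). IL18 was higher in resistant DOHH2 cells too, at 5.60 and 10.6 FPKM, and was listed at 0 in both resistant DAUDI libraries (limma adjusted p = 0.0209). It reached 1 FPKM only in resistant DOHH2 cells, so the filter set this direction. So resistant DOHH2 cells were not lower than resistant DAUDI cells in every cytokine transcript.

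**Figure D4:**
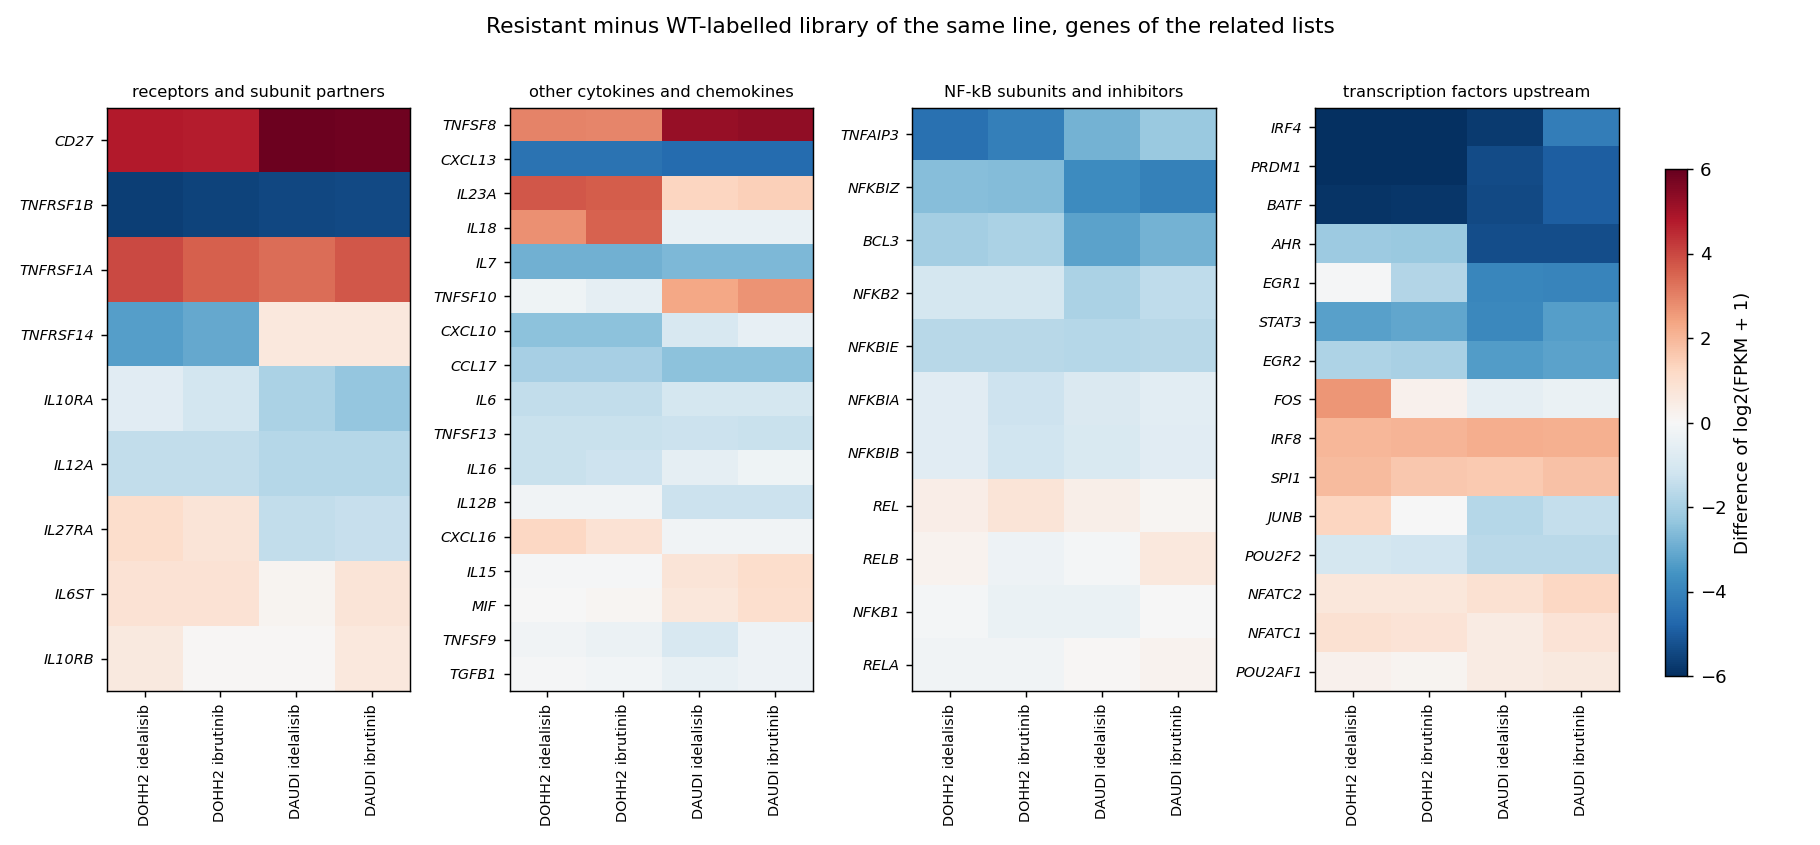
Difference of log2(FPKM + 1) between each resistant library (columns) and the WT-labelled library of its line, for the tested genes of 4 related lists (rows, ordered by largest absolute difference). Red is higher and blue is lower in resistant cells, and colours end at -6 and 6, with larger differences drawn in the end colour. CD27 is red and TNFRSF1B blue in all 4 columns, and no NF-kB gene is higher by 1 or more in any.

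Among 11 genes of NF-kB subunits and inhibitors none rose and 5 fell in resistant cells by limma, beside 14.2% and 13.1% of all genes. TNFAIP3, which encodes the inhibitor A20, stood at 0.370 and 0.771 FPKM in idelalisib-resistant and ibrutinib-resistant DOHH2 cells, against 29.7 FPKM in the WT-labelled library. In DAUDI it stood at 3.96 and 6.39 FPKM in idelalisib-resistant and ibrutinib-resistant cells, against 34.0 FPKM in the WT-labelled library, and it fell by 3.42 (SE 0.47, limma adjusted p = 0.0162). NFKBIZ fell by 3.25, BCL3 fell by 2.49 and NFKB2 fell by 1.38 (limma adjusted p = 0.0116, 0.0131 and 0.0235). TNFAIP3 was lower in resistant DOHH2 than resistant DAUDI cells by 1.96 (SE 0.14, limma adjusted p = 0.0162). The median difference of the list was -0.85, beside 0.12 over all genes.

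Among 17 transcription factor genes 15 passed the filter, and by limma 3 rose and 7 fell, beside 14.2% and 13.1% of all genes. Among the 7, EGR2, named after its values were seen, reached 1 FPKM only in WT-labelled libraries, so the filter set its direction. IRF4, a factor of activated B cells and plasma cells, stood at 0.304 and 0.339 FPKM in idelalisib-resistant and ibrutinib-resistant DOHH2 cells, against 357 FPKM in the WT-labelled library. In DAUDI it stood at 7.06 and 23.5 FPKM in idelalisib-resistant and ibrutinib-resistant cells, against 427 FPKM in the WT-labelled library. IRF4 fell by 6.51, PRDM1, the plasma cell factor, fell by 5.59, and BATF, an AP-1 family factor that binds DNA together with IRF4, fell by 5.52 (limma adjusted p = 0.0153, 0.00293 and 0.0027). Of the drug targets, BTK rose by 0.63 (SE 0.13, limma adjusted p = 0.0358) and PIK3CD fell by 1.33 (SE 0.15, limma adjusted p = 0.0115).

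Genes whose profile over the 6 libraries was nearest to a member were found by the Euclidean distance of centred log2(FPKM + 1), among 9254 genes. The distance is a description over 6 libraries that fall into few groups. SPIC, GJA1 and PSTPIP2 were nearest to IL10, at 0.118, 0.148 and 0.173. CAV1, CD36 and BHLHE41 were nearest to CCL22, at 0.514 to 0.564. LTB had no neighbour as close. ANKRD36BP2 was at 0.955, CPNE5 at 1.10 and ISG15, the interferon-induced ubiquitin-like gene, at 1.26. ISG15 stood at 1.45 and 1.31 FPKM in idelalisib-resistant and ibrutinib-resistant DOHH2 cells, against 19.1 FPKM in the WT-labelled library. ISG15 stood at 106 and 185 FPKM in idelalisib-resistant and ibrutinib-resistant DAUDI cells, against 16.2 FPKM in the WT-labelled library, so it shared the split of LTB between the lines. GEN1, GSTM2 and ZNF586 were nearest to LTA, at 0.295 to 0.392, LOC155060, ARHGEF25 and MVP to TNF, at 0.328 to 0.394, and FCRL3, SIK1 and BRSK1 to EBI3, at 0.361 to 0.630. GAS7 and SULF2 were near to IL32, at 0.878 and 0.952, and PRRC1, MESDC2 and GHITM to CD70, at 0.123 to 0.145.

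Markers of other blood and tissue cells were mixed. CD3D was listed at 0 in every library, and CD14 reached at most 0.103 FPKM. The 9 T and NK markers in the files summed to 1.41 to 5.38 FPKM in resistant libraries. In the WT-labelled DOHH2 and DAUDI libraries they summed to 7.66 and 3.65 FPKM, there mostly CD4. CD3E stood at 1.32 and 2.55 FPKM in idelalisib-resistant and ibrutinib-resistant DOHH2 cells, against 0 in the WT-labelled library. In idelalisib-resistant and ibrutinib-resistant DAUDI cells NKG7 stood at 1.31 and 1.51 FPKM and PRF1 at 0.547 and 1.52 FPKM. Both were listed at 0 in the WT-labelled DAUDI library. The 8 myeloid markers summed to 2.01 and 3.13 FPKM in resistant DOHH2 cells, against 20.7 FPKM in the WT-labelled library, and to 25.9 and 21.7 FPKM in resistant DAUDI cells, against 16.3 FPKM. LYZ stood at 15 and 13 FPKM and CSF1R at 5.73 and 2.20 FPKM in resistant DAUDI cells, and both were at most 0.199 FPKM elsewhere. LYZ and CSF1R thus were high in the same libraries as LTB, and their part in the LTB result was not tested. CD68, a lysosomal protein abundant in macrophages, stood at 1.84 and 3.07 FPKM in idelalisib-resistant and ibrutinib-resistant DOHH2 cells, against 18.7 FPKM in the WT-labelled library. In DAUDI it stood at 2.09 and 4.29 FPKM in idelalisib-resistant and ibrutinib-resistant cells, against 16.1 FPKM in the WT-labelled library. CD68 fell by 2.31 (SE 0.20, limma adjusted p = 0.0072), the direction of the 7 genes that fell, and its part in their differences was not tested. The 8 stromal and epithelial markers summed to 1.46 to 7.50 FPKM and the 3 erythroid markers to 0 to 5.46 FPKM.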

How the data were processed

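PolyA RNA of 6 cultures was sequenced with a directional kit, per the labels' protocols, 1 library per line and state. Per the submitters' processing notes the tools were bcl2fastq, cutadapt, TopHat2 and Cufflinks and the build hg19, with tool versions not given in the sources used here. Deposited tables give, per the file headers, FPKM for 43490 RefSeq isoforms, with FPKM bounds, a coverage signal and the isoform length. The bounds were not used, since 1670 to 2343 values in each library fall outside them, among them that of CD70 in all 6. Coverage was used for relative depth. Shared reads may be split between near-identical genes.

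FPKM were summed over isoforms by gene symbol, without 528 unnamed isoforms and 10 genes with a failed estimate, and log2(FPKM + 1) was taken, which understates changes of low genes. Genes at 1 FPKM or more in at least 1 library were tested (12337). limma 3.58.1 in R 4.3.3 (trend, two-sided, Benjamini-Hochberg threshold 0.05) was fitted to the 6 libraries with line and state (2 residual and 2 prior degrees of freedom), to the 4 resistant libraries with line and drug (1 residual and 1.94 prior), and, chosen after seeing the data, to 1 mean per line and state (2 residual and 1.35 prior). Its steps were run on simulated data with independent noise, as a check of the code. That simulation lacks values at the floor and WT-labelled libraries unlike their lines, so it does not measure error rates in these data. The line is the only pairing the labels give, and its block is in the 6-library fit. Differences within a line have no test and were called at 1. Against a value listed at 0 no ratio was formed. Start positions in the files count from 0 and were raised by 1.

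The members and lists were chosen with earlier results of these data known. The text names the 10 genes, their copies, up to 4 genes of each other list with the largest absolute difference within a line, 3 nearest genes for each member at 5 FPKM or more in a library, and the drug targets BTK and PIK3CD. 1 of the nearest genes of IL32 is not reported here. Other names are marked, apart from the cell type markers. Alternatives were pseudocounts of 0.1 and 5, other scaling, no filter or 5 FPKM, no trend, no block and each library left out.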

Additional observations from a re-analysis of the deposited data

Results flagged for a closer look

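LTB is flagged because its difference between resistant and WT-labelled libraries had opposite signs in the lines. Passing the test of that contrast does not by itself mark LTB out, since 9.6% of all genes did so. On the log2(FPKM + 1) scale the state difference of DOHH2 minus that of DAUDI was -7.17 (95% interval -7.70 to -6.64, limma adjusted p = 0.00517), in a fit chosen after seeing the data, with LTB lower in 2 of 2 resistant DOHH2 libraries and higher in 2 of 2 resistant DAUDI libraries. The difference was -7.12 without idelalisib-resistant DOHH2 and -7.22 without ibrutinib-resistant DOHH2, and it did not pass in either fit. It was -7.10 without idelalisib-resistant and -7.23 without ibrutinib-resistant DAUDI. Each fit with a resistant library left out takes its residual spread from the resistant pair of the other line alone. With another setting tried on all 6 libraries the limma adjusted p was 0.00232 to 0.0077. The WT-labelled libraries were not left out of this fit.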

How the results depend on the processing

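Resistant minus WT-labelled gave 3364 genes, 3200 with no replicate block (the same 7 of the 10 genes passing) and 0 to 3418 with 1 library left out: 0 without idelalisib-resistant DOHH2, 308 without ibrutinib-resistant DOHH2, 163 without idelalisib-resistant DAUDI and 180 without ibrutinib-resistant DAUDI. For the drug contrasts taken singly, TNF lost its call and CCL3 gained one without the block for idelalisib. The labels give no replicate numbers, so the line is the pairing. The line contrast gave 1914 genes, 0 with no filter, and 3362 without the drug in the fit. With the drug out and 1 library left out it gave 742 to 2985, with 775 without idelalisib-resistant DOHH2 and 742 without ibrutinib-resistant DOHH2. The drug contrast gave 0 genes, and 1 with a filter of 5 FPKM. In the fit with 1 mean per line and state, leaving out 1 resistant library gave 2032 to 4979 genes for DAUDI, 1648 to 4818 for DOHH2 and 0 to 1461 for the difference between them. Fits with a library left out have 1 residual degree of freedom, against 2 in the full fits of 6 libraries and 1 in the line fit with the drug. Without the WT-labelled DAUDI library LTB turned to -2.85 for resistant, -2.84 for idelalisib-resistant and -2.86 for ibrutinib-resistant minus WT-labelled cells. Without the WT-labelled DOHH2 library it was 4.32, 4.33 and 4.31 in the same order. Each such fit has 1 WT-labelled library, and for resistant cells these values are the differences within DOHH2 and within DAUDI. Of the 10 genes, 2 differed by 1 or more between the drugs in DAUDI with a pseudocount of 0.1, against 0. Between the WT-labelled libraries 1 did with a pseudocount of 5 and 1 with upper quartile scaling, against 2. With a filter of 5 FPKM, CCL3 and CCL4 were not tested. Over all results and settings, 1038 values stayed on their side of the threshold, 114 no longer passed, 43 newly passed, 16 moved and 3 reversed. A turn of sign in a value that passed in neither setting counts among the 1038. Where no cause is given, the cause was not tested. Depth is unknown, so no limit of detection is given for values at or near 0.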
